A study of Homo sapiens with 6 samples.

Results

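Sterol synthesis enzymes and the genes that control them were followed in PC-3, a human prostate carcinoma line that grows without androgen, after exposure to menthol, the cooling compound of mint. The set held 31 genes named by their place in the pathway, of 18404 genes measured. A gene was measured here when a probeset carried its symbol alone, which held for 29 of the 31. FDFT1 and HSD17B7 were not analysed here, and the set does not hold every enzyme of the pathway. RNA came from 3 arrays of cells given menthol in ethanol and 3 arrays of cells given ethanol alone, called vehicle below. Per the labels, both groups had 10% serum and 0.1% ethanol, and the labelling reaction took 300 ng of RNA. All arrays came from this single cell line, and neither the menthol dose nor the treatment time is given in the sources used here.

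Cholesterol is built from acetyl-CoA through mevalonate, squalene and lanosterol, and the mevalonate part also supplies isoprenoids for protein prenylation, dolichol and ubiquinone. The transcription factors SREBF1 and SREBF2 (SREBPs) are made as precursors in the membrane of the endoplasmic reticulum. When sterols are scarce, SCAP escorts them to the Golgi, where the proteases MBTPS1 and MBTPS2 release the active part, and when sterols are abundant, INSIG proteins hold SCAP back. Prostate tumour cells are known for active lipid synthesis.

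Most of the enzyme genes rose, whereas the control and transport genes gave calls in both directions. Of 18 measured enzymes 13 rose, 0 fell and 5 (IDI1, GGPS1, LSS, MSMO1 and NSDHL) did not pass the test, which was limma across all genes with an adjusted p under 0.05. Over all genes 14.6% rose and 14.5% fell by the same rule, and 29.1% passed in either direction. Of the 11 measured control and transport genes 3 rose (INSIG1, STARD4 and NPC1), 2 fell (SREBF1 and SCAP) and 6 did not pass. The median log2 change was 0.40 in the enzymes, 0.11 in the control and transport genes and 0.03 over all genes.

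Values are log2 intensity, and changes are menthol minus vehicle on that scale with the moderated standard error (SE, n = 3 per group). In 25 of the 29 genes no menthol array overlapped a vehicle array, 23 of them higher with menthol. Over all genes the groups did not overlap in 45.3%, and in 23.5% they did not overlap with menthol higher. The genes of the set were bright, with 19 in the brightest 25% of genes, where 17.2% rose and 26.9% fell. Of these 19 genes 9 rose and 1 fell. The groups did not overlap in 17 of the 19, 16 of them higher with menthol. Among all 4601 genes of the brightest 25% they did not overlap in 3061, 1230 of them higher. Only 5 genes of the set changed at least 1.5-fold past the threshold, ACAT2, MVK, CYP51A1, INSIG1 and STARD4, all higher, against 2.99% of all genes higher by that rule.

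**Figure D1:**
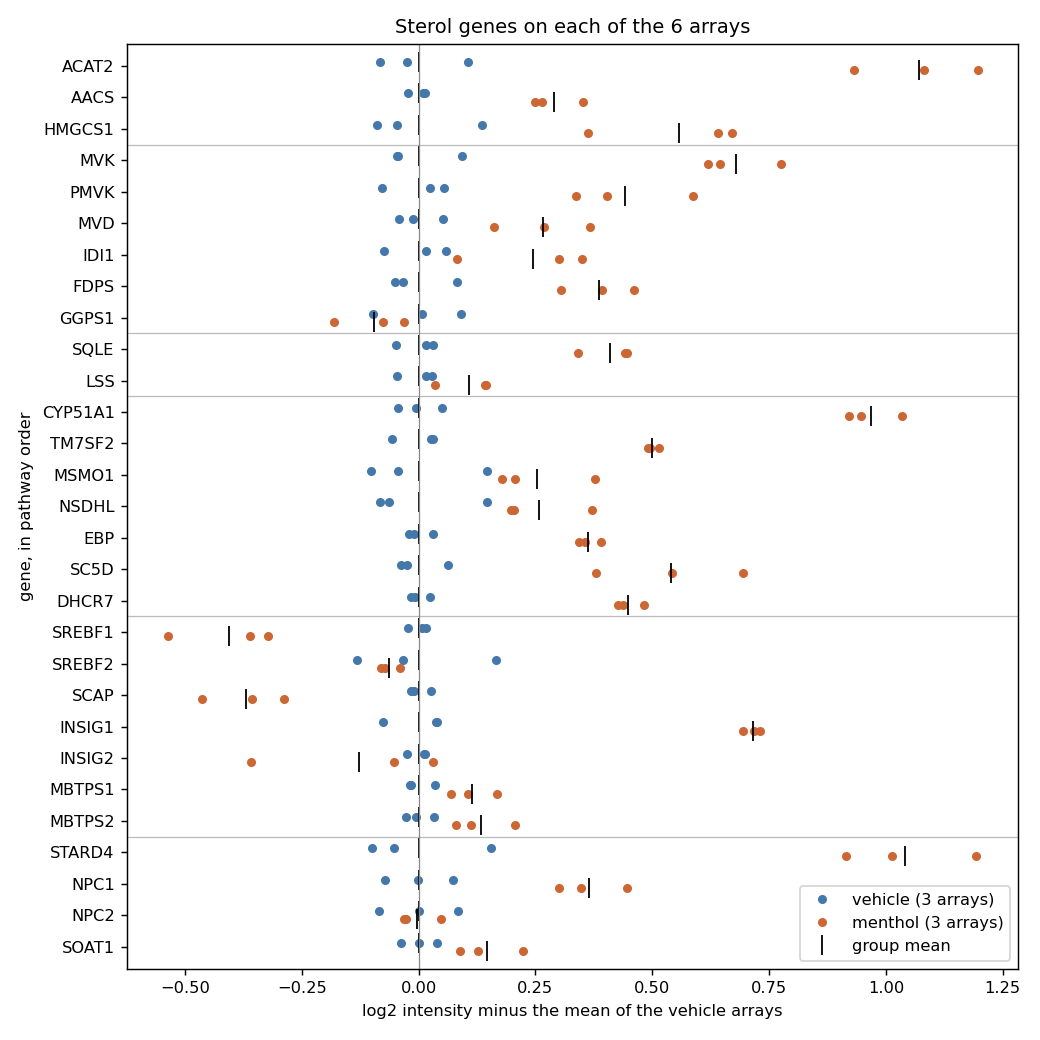
Log2 intensity of 29 sterol genes on each array, minus the mean of the 3 vehicle arrays (horizontal axis), with genes in pathway order (vertical axis). Points are arrays and black ticks are group means. Most enzyme genes have all 3 menthol arrays to the right of all 3 vehicle arrays, whereas SREBF1 and SCAP have them to the left.

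The DNA before the start sites is shown first for genes that rose or fell, since SREBPs act at promoters, usually with the factors NF-Y and SP1. Of the set, 28 genes had an entry in RefSeq's promoter windows on GRCh38.p14, with 37 windows in all, and the 250 bases before each start were searched on both strands. The motifs were chosen with the changes of the genes already known, so their shares describe the set and test nothing. A CCAAT box, the NF-Y core written CCAAT, was found in 56.8% of these windows and in 32.0% of all 35116 windows. A GC box, the SP1 core written GGGCGG, was found in 86.5% against 42.6%. Of the 14 genes with an entry that rose, 10 had a CCAAT box and 14 a GC box. Of the other 14 with an entry, HSD17B7 included, 9 had a CCAAT box and 11 a GC box. Counted by gene, 67.9% of the set and 37.0% of all genes had a CCAAT box, and 89.3% and 46.2% a GC box. Matches were counted for each motif separately, and matches to different motifs may overlap. The letters describe these windows and do not show that a factor bound there.

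The following stretches end at the base before the start and run on the gene's own strand, for 4 genes that rose and for SREBF1, which fell. These 5 were picked with values and sequences known, from genes whose listed start is the outermost one, and CYP51A1 and SCAP were looked at and left out because another annotated start lies upstream. The stretch was lengthened until no marked match was cut. Capitals mark CCAAT boxes and GC boxes, which read ATTGG and CCGCCC on the opposite strand, and the E-box CACGTG, which SREBPs can also bind. They lie at chr5:111512536-111512670 (STARD4, minus strand), chr7:155297743-155297877 (INSIG1, plus), chr11:65111737-65111871 (TM7SF2, plus), chrX:48521673-48521807 (EBP, plus) and chr17:17836987-17837121 (SREBF1, minus).
STARD4: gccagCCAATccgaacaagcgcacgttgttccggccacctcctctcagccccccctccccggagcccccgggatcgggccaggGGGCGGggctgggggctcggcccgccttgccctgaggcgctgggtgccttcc
INSIG1: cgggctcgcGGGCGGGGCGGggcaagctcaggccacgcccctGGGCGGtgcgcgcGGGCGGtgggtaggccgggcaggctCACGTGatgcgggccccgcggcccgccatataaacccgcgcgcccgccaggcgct
TM7SF2: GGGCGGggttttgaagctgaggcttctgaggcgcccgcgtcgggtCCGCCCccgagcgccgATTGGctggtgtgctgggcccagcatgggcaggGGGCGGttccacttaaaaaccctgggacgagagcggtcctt
EBP: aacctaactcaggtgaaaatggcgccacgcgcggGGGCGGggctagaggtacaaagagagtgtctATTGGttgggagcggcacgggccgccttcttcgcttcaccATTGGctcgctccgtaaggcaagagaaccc
SREBF1: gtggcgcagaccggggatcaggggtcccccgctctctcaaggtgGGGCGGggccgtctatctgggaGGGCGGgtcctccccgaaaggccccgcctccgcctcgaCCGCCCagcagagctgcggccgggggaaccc

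In these stretches INSIG1 held 4 GC boxes, the E-box and 0 CCAAT boxes, EBP held 1 GC box and 2 CCAAT boxes, and SREBF1 held 3 GC boxes and 0 CCAAT boxes. In the longer window searched, INSIG1 had a CCAAT box at bases -170 to -166, beyond the printed stretch. AACS, PMVK, CYP51A1 and NPC1, which rose, had 0 CCAAT boxes in the longer windows. The E-box was in 10.8% of the set's windows and 6.34% of all windows, in INSIG1, SC5D and SCAP. Counted by gene, 10.7% of the set and 7.73% of all genes had it. INSIG1 and SC5D rose, whereas SCAP fell. The E-box was searched after the INSIG1 stretch had been seen.

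A core of the sterol regulatory element, searched as TCACNCCA, was in 8.11% of the set's windows and 3.2% of all windows. It was found before a start of MVK, MSMO1 and SREBF2, of which MVK rose and the others did not pass the test. The MVK gene begins at chr12:109573272, upstream of its stretch, so that match lies before an inner start of the gene. The 30 bases around each match, capitals marking it, lie at chr12:109573587-109573616 (MVK), chr4:165327501-165327530 (MSMO1) and chr22:41832960-41832989 (SREBF2), all on the plus strand.
MVK: ggttcgcagttcTCACCCCAgggcgggaca
MSMO1: gtctcactatccTCACTCCAtccgcggagc
SREBF2: gatgacgcgccaTCACCCCAcgcaccgctt

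**Figure D2:**
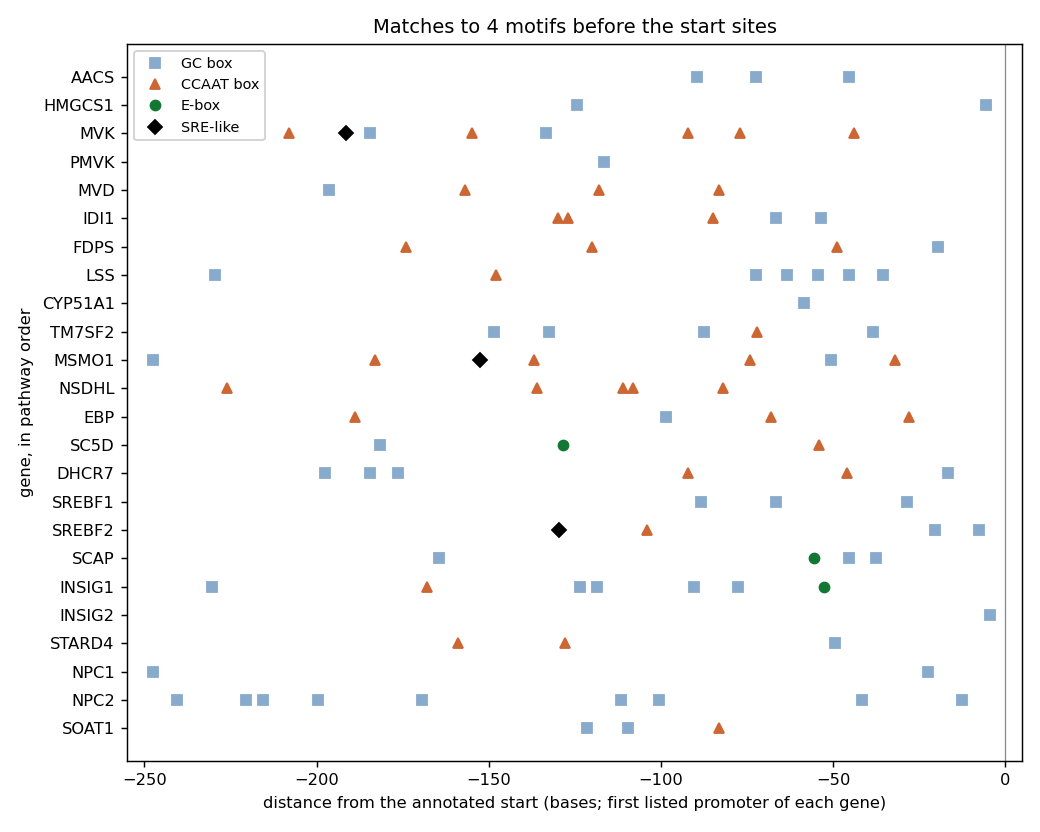
Positions of motif matches in the 250 bases before the annotated start, in bases from the start (horizontal axis), for the first listed window of each measured gene with a match (vertical axis). Squares are GC boxes, triangles CCAAT boxes, circles E-boxes and diamonds matches to the sterol regulatory element core. MVK, MSMO1 and SREBF2 carry the diamonds.

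At the entry of the pathway all 3 genes rose. ACAT2, the cytosolic thiolase that joins acetyl-CoA units to acetoacetyl-CoA, read 7.95, 8.01 and 8.14 with vehicle and 8.96, 9.11 and 9.23 with menthol. Every menthol array was above every vehicle array by at least 0.83, and the change of 1.07 ± 0.09 (adjusted p = 0.000184) was the largest in the set, 2.10-fold.

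HMGCS1, which makes HMG-CoA, read 8.94, 8.89 and 9.12 with vehicle and 9.34, 9.62 and 9.65 with menthol. It rose by 0.56 ± 0.10 (adjusted p = 0.00571), with menthol replicate 1 the nearest to the vehicle arrays. AACS, which activates acetoacetate to acetoacetyl-CoA, read 7.59, 7.58 and 7.55 with vehicle and 7.84, 7.93 and 7.82 with menthol. The vehicle arrays of AACS were close together (SD 0.02), and its rise of 0.29 ± 0.06 (adjusted p = 0.00983) was the smallest of these 3 genes.

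Of the 6 genes from mevalonate to farnesyl and geranylgeranyl diphosphate 4 rose and 0 fell. MVK, mevalonate kinase, read 7.24, 7.10 and 7.10 with vehicle and 7.79, 7.76 and 7.92 with menthol. It rose by 0.68 ± 0.07 (adjusted p = 0.000566), and its groups lay 0.53 apart. MVK overlaps MMAB, a gene of cobalamin metabolism on the opposite strand, by 233 bases in RefSeq's annotation. MMAB, measured by its own probeset, read 6.71, 6.48 and 6.60 with vehicle and 7.06, 7.11 and 6.99 with menthol, a rise of 0.46 ± 0.08 (adjusted p = 0.0039).

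The next kinase of the branch, PMVK, read 7.21, 7.11 and 7.24 with vehicle and 7.77, 7.59 and 7.52 with menthol, and rose by 0.44 ± 0.08 (adjusted p = 0.00614). FDPS, which makes farnesyl diphosphate, read 8.81, 8.83 and 8.94 with vehicle and 9.25, 9.16 and 9.32 with menthol, and rose by 0.39 ± 0.07 (adjusted p = 0.00575). In both genes every menthol array was above every vehicle array.

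MVD, the decarboxylase that yields isopentenyl diphosphate, read 7.48, 7.55 and 7.45 with vehicle and 7.66, 7.76 and 7.86 with menthol. Its rise of 0.27 ± 0.07 passed the threshold (adjusted p = 0.0285), but was lost (adjusted p from 0.0546 to 0.0879) on leaving out any vehicle array, menthol replicate 2 or menthol replicate 3. MVD was the single gene of the set to lose its call when an array was left out. IDI1, the isomerase of the same product, read 8.35, 8.44 and 8.48 with vehicle and 8.50, 8.72 and 8.77 with menthol. The groups lay 0.02 apart and the change of 0.24 ± 0.09 did not pass (adjusted p = 0.0682), except without menthol replicate 1 (0.32, adjusted p = 0.0185) and under 7 other alternatives.

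GGPS1, which turns farnesyl into geranylgeranyl diphosphate for protein prenylation, did not share the direction of its neighbours. It read 6.73, 6.63 and 6.82 with vehicle and 6.54, 6.69 and 6.65 with menthol. The groups overlapped, and the change was -0.10 ± 0.08 (95% interval -0.27 to 0.08, adjusted p = 0.376). It was the single enzyme of the set with a change below 0.

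Between squalene and lanosterol 2 genes were measured. SQLE, the epoxidase that adds oxygen to squalene, read 10.37, 10.30 and 10.38 with vehicle and 10.69, 10.79 and 10.79 with menthol, and rose by 0.41 ± 0.06 (adjusted p = 0.00266). LSS, which closes the ring to lanosterol, read 8.50, 8.43 and 8.49 with vehicle and 8.51, 8.62 and 8.61 with menthol. The groups of LSS all but touched, and the change of 0.11 ± 0.06 did not pass (95% interval -0.04 to 0.25, adjusted p = 0.243).

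From lanosterol to cholesterol 5 of 7 measured genes rose and 0 fell. CYP51A1, which removes a methyl group from lanosterol, read 9.60, 9.70 and 9.64 with vehicle and 10.57, 10.60 and 10.68 with menthol. It rose by 0.97 ± 0.06 (adjusted p = 7.85e-05), the smallest p of the set, and the groups lay 0.87 apart. A second probeset of CYP51A1, not kept because it was dimmer, read from 5.17 to 5.64 with vehicle and from 5.30 to 5.86 with menthol. The groups overlapped there, with a difference of 0.16.

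The sterol reductase TM7SF2 read 7.43, 7.43 and 7.35 with vehicle and 7.90, 7.92 and 7.90 with menthol, and rose by 0.50 ± 0.06 (adjusted p = 0.000841). SC5D, a sterol desaturase, read 9.01, 9.02 and 9.11 with vehicle and 9.43, 9.59 and 9.74 with menthol, and rose by 0.54 ± 0.09 (adjusted p = 0.00358). The menthol arrays of TM7SF2 were almost equal (SD 0.01), while those of SC5D were spread (SD 0.16).

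DHCR7, the reductase of the final step that yields cholesterol, read 10.24, 10.24 and 10.28 with vehicle and 10.69, 10.68 and 10.74 with menthol. It rose by 0.45 ± 0.06 (adjusted p = 0.00117). EBP, a sterol isomerase, read 9.67, 9.68 and 9.72 with vehicle and 10.03, 10.08 and 10.05 with menthol, and rose by 0.36 ± 0.06 (adjusted p = 0.003). In both genes the arrays of a group differed by far less than the groups did.

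The enzymes that remove the methyl groups at the fourth carbon gave smaller differences. MSMO1, the methylsterol oxidase, read 8.62, 8.68 and 8.87 with vehicle and 8.91, 8.93 and 9.10 with menthol (change 0.25 ± 0.09, adjusted p = 0.0676). NSDHL, the dehydrogenase that acts after it, read 8.76, 8.74 and 8.97 with vehicle and 9.02, 9.02 and 9.19 with menthol (change 0.26 ± 0.09, adjusted p = 0.06). In both, vehicle replicate 3 was the highest vehicle array and lay just under the menthol arrays. Without it the changes were 0.33 and 0.33 and passed (adjusted p = 0.0384 and 0.0327), and both also passed under 7 other alternatives.

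**Figure D3:**
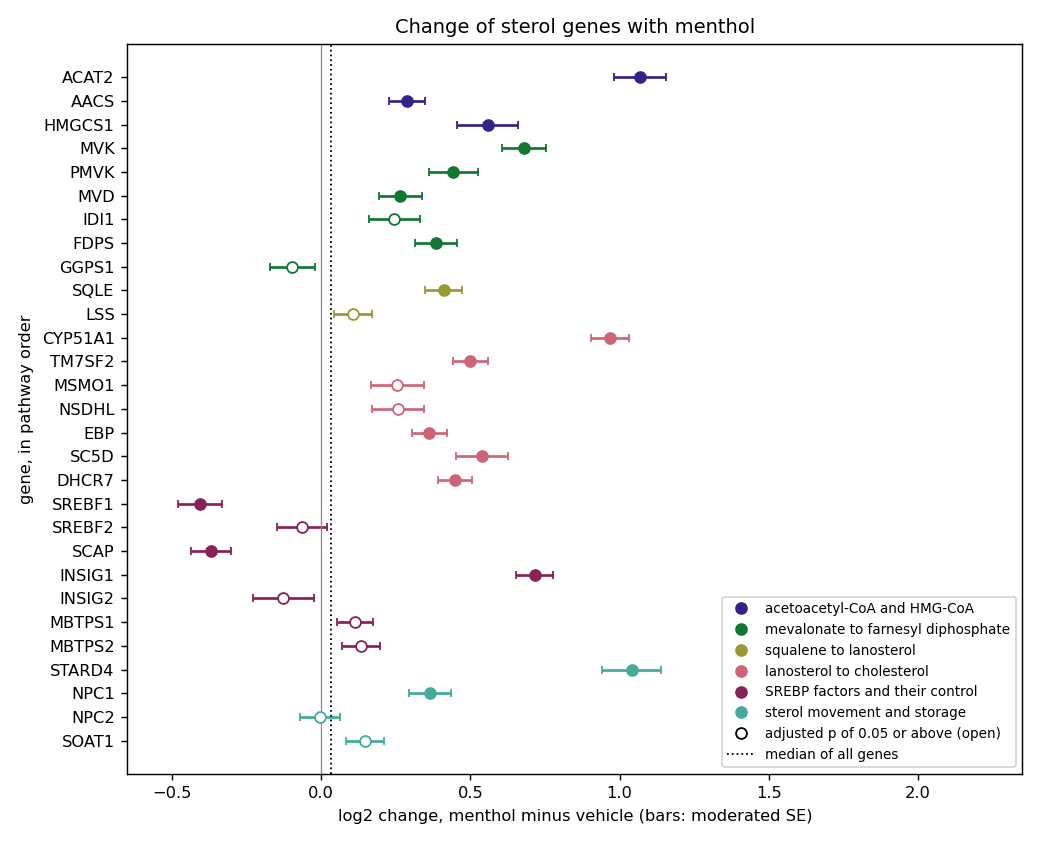
Log2 change, menthol minus vehicle (horizontal axis), with the moderated SE as bars (3 arrays per group), for 29 genes in pathway order (vertical axis). Filled points passed the threshold and open points did not, and the dotted line is the median of all genes, 0.03. ACAT2, STARD4 and CYP51A1 lie near 1, and SREBF1 and SCAP lie below 0.

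Of the 7 genes of the SREBP factors and their control 1 rose, 2 fell and 4 did not pass. SREBF1, whose main products favour fatty acid genes, read 6.996, 6.987 and 6.957 with vehicle and 6.44, 6.62 and 6.66 with menthol. It fell by 0.41 ± 0.07 on the log2 scale (adjusted p = 0.00532), and all 3 menthol arrays were below all vehicle arrays. SREBF2, whose product favours cholesterol genes, read 7.56, 7.46 and 7.76 with vehicle and 7.52, 7.52 and 7.56 with menthol. Its menthol arrays lay within the range of the vehicle arrays, and the change of -0.06 ± 0.08 did not pass (95% interval -0.26 to 0.13, adjusted p = 0.612).

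SCAP, the sterol-sensing escort, read 8.76, 8.81 and 8.77 with vehicle and 8.32, 8.49 and 8.42 with menthol. It fell by 0.37 ± 0.07 (adjusted p = 0.00534), with a gap of 0.27 between the groups. MBTPS1, which makes the first cut in the SREBP precursor, read 10.00, 10.06 and 10.00 with vehicle and 10.09, 10.19 and 10.13 with menthol (change 0.11 ± 0.06, adjusted p = 0.195). MBTPS2, which makes the other cut, read 9.51, 9.55 and 9.49 with vehicle and 9.59, 9.63 and 9.72 with menthol (change 0.13 ± 0.06, adjusted p = 0.152). Neither protease gene passed, although in both every menthol array was slightly above every vehicle array. MBTPS2 passed under cyclic loess normalization (0.19, adjusted p = 0.047).

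INSIG1 is itself an SREBP target, and INSIG2 is made largely without SREBP control. INSIG1 read 7.49, 7.60 and 7.60 with vehicle and 8.29, 8.28 and 8.26 with menthol. It rose by 0.71 ± 0.06 (adjusted p = 0.000239), and its menthol arrays were nearly equal (SD 0.02). INSIG2 read 9.34, 9.38 and 9.38 with vehicle and 9.01, 9.31 and 9.39 with menthol. Menthol replicate 1 was low while the other menthol arrays were close to the vehicle level, and the change of -0.13 ± 0.10 did not pass (95% interval -0.36 to 0.11, adjusted p = 0.388). Without menthol replicate 1 it was -0.012, and without menthol replicate 3 it was -0.21.

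The unequal changes of partner genes were set against each other in 3 pairs, chosen with their values known. The change of INSIG1 exceeded that of INSIG2 by 0.84, that of SREBF2 exceeded that of SREBF1 by 0.34, and that of NPC1 exceeded that of NPC2 by 0.37. Each gave p = 0.1 in an exact two-sided permutation test over the arrays, 0.1 after adjustment over the 3 pairs. This is the smallest p that 3 against 3 arrays allow, so the test could not pass a threshold of 0.05.

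**Figure D4:**
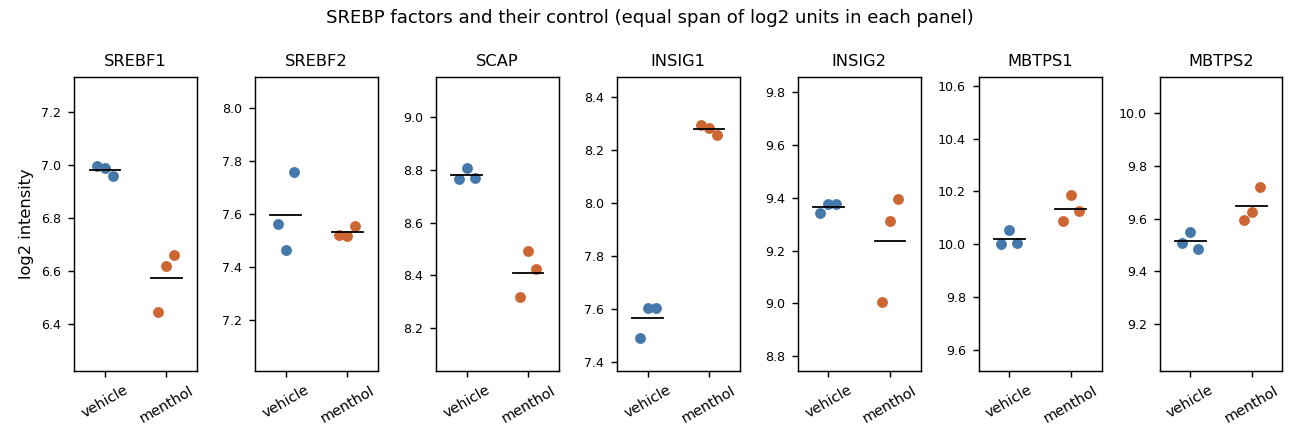
Log2 intensity (vertical axis, the same span in every panel) of 7 genes of SREBP control in the vehicle and menthol groups (horizontal axis). Points are arrays (3 per group) and lines are group means. SREBF1 and SCAP are lower on all 3 menthol arrays and INSIG1 is higher, while the groups overlap in SREBF2 and INSIG2.

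Of the 4 genes of sterol movement and storage 2 rose and 0 fell. STARD4, a soluble carrier that moves cholesterol between membranes, read 6.63, 6.67 and 6.88 with vehicle and 7.64, 7.74 and 7.92 with menthol. It rose by 1.04 ± 0.10 (adjusted p = 0.000328), or 2.06-fold, and the groups lay 0.76 apart. NPC1, the membrane protein that exports cholesterol from lysosomes, read 9.55, 9.62 and 9.69 with vehicle and 9.92, 9.96 and 10.06 with menthol, and rose by 0.36 ± 0.07 (adjusted p = 0.00694).

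NPC2, the soluble lysosomal protein that hands cholesterol to NPC1, read 10.57, 10.65 and 10.74 with vehicle and 10.70, 10.63 and 10.62 with menthol. The groups overlapped fully, with a change of -0.004 ± 0.068 (95% interval -0.16 to 0.15, adjusted p = 0.976). SOAT1, which esterifies cholesterol for storage, read 8.73, 8.69 and 8.65 with vehicle and 8.78, 8.91 and 8.82 with menthol. Its menthol arrays were just above the vehicle arrays, and the change of 0.15 ± 0.06 did not pass (adjusted p = 0.129), except among the brighter genes above the 50th percentile (adjusted p = 0.0481).

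Within each group, the order of the arrays leaned the same way in many genes of the set. Vehicle replicate 3 was the highest vehicle array in 17 of 29 genes (58.6%), against 36.3% of all genes. Menthol replicate 3 was the highest menthol array in 18 (62.1%), against 37.6% of all genes, and menthol replicate 1 was the lowest in 19 (65.5%), against 39.9%. Vehicle replicate 1 was the lowest vehicle array in 14 (48.3%), against 30.9%, so in both groups replicate 1 was most often the lowest and replicate 3 most often the highest. With any 1 array left out, 15 to 17 genes of the set rose and 2 fell.

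Neighbouring pathways, in 8 lists that are not part of the set, moved in both directions: of 91 measured genes 21 rose and 26 fell. In either direction 47 of the 91 passed. Over all genes 14.6% rose, 14.5% fell and 29.1% passed in either direction, so the lists together passed more often than all genes did. Brighter genes passed more often: in a fit of the genes above the 50th percentile of brightness, 4999 of 9202 passed, and 43 of 65 list genes. The part of brightness in the count of the lists was not tested. Nothing particular to a list is read from its count. Without vehicle replicate 1 or menthol replicate 2, 14 rose and 17 fell. In acetyl-CoA supply and ketone metabolism 1 of 8 rose and 3 fell. The synthase of the citrate cycle, CS, fell by 0.36 ± 0.07, the ketone-using enzyme OXCT1 by 0.36 ± 0.06 and ACLY, which makes cytosolic acetyl-CoA from citrate, by 0.23 ± 0.06. BDH2, a dim gene, rose by 0.61 ± 0.11. The ketone body dehydrogenase BDH1 did not pass (change 0.13 ± 0.09, adjusted p = 0.32). The call on ACLY was lost on leaving out vehicle replicate 1, vehicle replicate 3, menthol replicate 1 or menthol replicate 2.

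The isoprenoid branches that leave the pathway after farnesyl diphosphate also split, with 2 of 12 genes higher and 5 lower. DHDDS, of dolichol synthesis, rose by 0.41 ± 0.07. RABGGTB, which prenylates Rab proteins, fell by 0.68 ± 0.08, and the ubiquinone synthesis genes PDSS2 and COQ2 fell by 0.33 ± 0.10 and 0.26 ± 0.06. The call on PDSS2 was lost on leaving out vehicle replicate 2, vehicle replicate 3, menthol replicate 1 or menthol replicate 2, and that on COQ2 with replicate 1 or 2 of either group left out. These counts were sensitive to single arrays: 1 rose and 2 fell without vehicle replicate 1, 2 or 3, and 1 rose and 1 fell without menthol replicate 2. Without menthol replicate 1, 2 rose and 3 fell, and without menthol replicate 3, 1 rose and 4 fell.

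Among factors of sterol-regulated protein degradation and SREBP accessory factors 4 of 12 rose and 3 fell. ERLIN1, a membrane protein of that degradation machinery, fell by 0.76 ± 0.07 and the ubiquitin ligase RNF145 by 0.58 ± 0.08. FBXW7, which targets nuclear SREBPs for degradation, fell by 0.36 ± 0.09, and SPRING1, needed for SREBP processing, rose by 0.37 ± 0.06. Without vehicle replicate 1 the counts were 2 higher and 3 lower. They were 1 and 2 on leaving out replicate 2 of either group, and 2 and 2 on leaving out replicate 3 of either group. The call on FBXW7 ended on leaving out replicate 2 or 3 of either group.

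In intracellular sterol transport and ester handling 4 of 19 genes rose and 5 fell. LIPA, the lysosomal lipase that frees cholesterol from its esters, rose by 0.97 ± 0.06, and the ester hydrolase NCEH1 by 0.73 ± 0.06. OSBPL9, an oxysterol-binding protein, rose by 0.33 ± 0.08, a call that ended without vehicle replicate 1 or menthol replicate 2. The lipoprotein receptor SCARB1 fell by 0.43 ± 0.06. Without vehicle replicate 1, 2 rose and 3 fell, without vehicle replicate 2, 4 rose and 3 fell, and without vehicle replicate 3, 4 rose and 2 fell. Without menthol replicate 1, 5 rose and 3 fell, and without menthol replicate 2, 2 rose and 4 fell.

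Of 13 other sterol-responsive genes 5 rose and 2 fell. LPIN1, a phosphatidate phosphatase, rose by 0.82 ± 0.06, the desaturase FADS1 by 0.49 ± 0.06 and MMAB as above. PNPLA3, a lipid droplet hydrolase, fell by 0.41 ± 0.09, and without vehicle replicate 1 neither it nor another gene of this list fell. The elongase ELOVL6, named after its value was seen, also rose, by 0.39 ± 0.07. FADS1, FADS2, LPIN1, ELOVL6 and PNPLA3 are also known as targets of SREBF1, and are counted here and not in the next list. Of these, PNPLA3 fell as given above and FADS2 did not pass (change 0.03 ± 0.07). The 11 measured genes listed as fatty acid targets of SREBF1 gave 2 higher and 4 lower genes, 1 higher and 4 lower without vehicle replicate 1 or 2, and 2 and 3 without menthol replicate 2. Their median change was 0.06, with 6 of 11 above 0, and the difference from the sterol enzymes was not tested. SCD, the stearoyl-CoA desaturase, fell by 0.83 ± 0.07, the synthase FASN by 0.65 ± 0.06 and the malic enzyme ME1 by 0.43 ± 0.06, while the elongase ELOVL1 rose by 0.47 ± 0.06.

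Of 8 measured targets of the oxysterol receptor LXR and efflux genes 1 rose and 3 fell. The exporters ABCA1 and ABCG1 fell by 1.04 ± 0.07 and 0.52 ± 0.11, and MYLIP, a ligase that degrades lipoprotein receptors, by 0.50 ± 0.08. SMPDL3A, a secreted phosphodiesterase, rose by 0.72 ± 0.10. Of 8 enzymes of bile acids and oxysterols 2 rose and 1 fell. CYP39A1, an oxysterol hydroxylase, rose by 0.49 ± 0.11. SULT2B1 and CH25H changed by 0.26 ± 0.08 and -0.26 ± 0.08 at adjusted p values of 0.0437 and 0.0496, and SULT2B1 did not pass without any 1 array other than menthol replicate 1. CH25H did not pass without any 1 array other than menthol replicate 3.

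**Figure D5:**
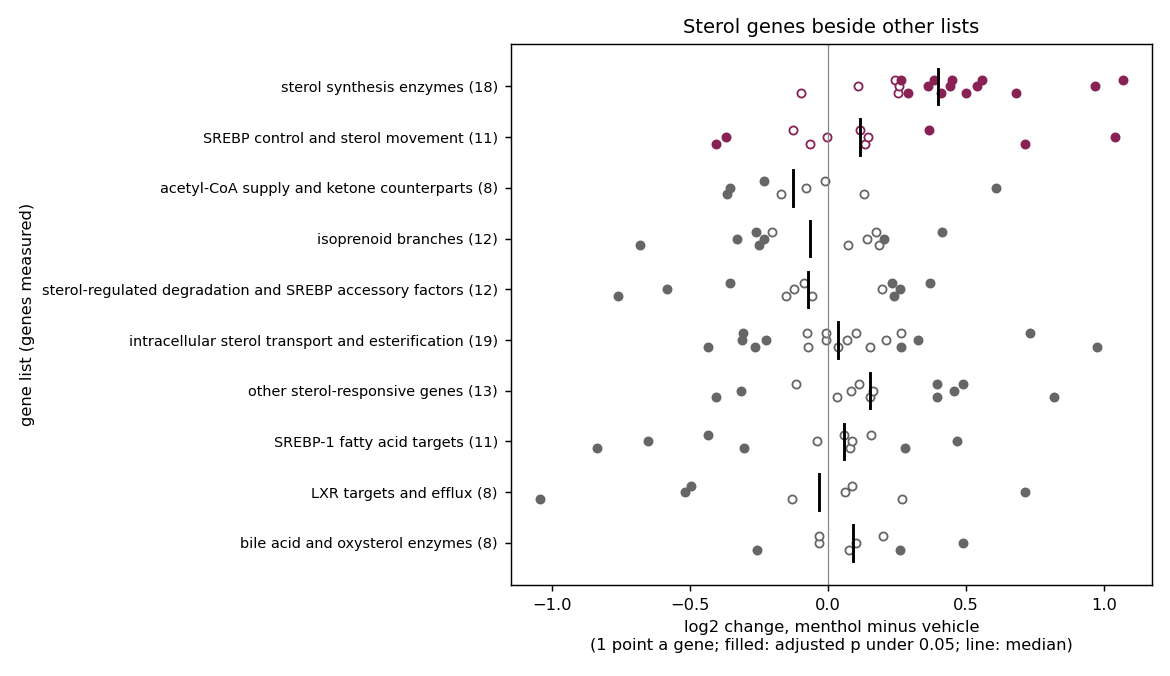
Log2 change, menthol minus vehicle (horizontal axis), of each gene in the sterol set (upper rows) and in 8 neighbouring lists (vertical axis, with the number of genes measured). Filled points passed the threshold and thick lines are medians. The sterol enzymes have a median of 0.40, and the medians of the 8 neighbouring lists lie between -0.13 and 0.15.

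Over all 18404 genes 5353 passed the threshold. Of the epithelial and prostate markers 7 of 9 were measured, and the keratins KRT8 and KRT18 were bright on all arrays while the luminal secretory genes KLK2 and KLK3 were in the dimmer 50% of genes. Of these 7 markers 5 rose and 0 fell, and their summed intensity ran from 6296 to 6650 with vehicle and from 10594 to 10935 with menthol. Markers of other cell types were mostly dim: 5 of 6 fibroblast, 5 of 5 endothelial and 4 of 5 leukocyte markers lay in the dimmer 50% of genes. Their summed intensity ran from 393.0 to 414.8 with vehicle and from 341.9 to 369.8 with menthol for fibroblasts, from 151.8 to 166.4 and from 191.7 to 200.5 for endothelium, and from 544.6 to 579.2 and from 643.8 to 698.1 for leukocytes. CD68 alone made 84.6% to 88.5% of the leukocyte sum, and COL1A1, which did not pass, 57.6% to 61.6% of the fibroblast sum. Fibroblast markers counted 2 higher and 1 lower, endothelial markers 2 and 0, and leukocyte markers 1 and 0. Their part in the results was not tested. In bulk RNA, fewer cells with a transcript and less of it per cell cannot be told apart. Nothing in the labels says whether each replicate was its own culture, and the p-values then measure a spread between samples that may be technical.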

How the data were processed

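RNA from 6 samples was measured on Affymetrix whole-transcript arrays. The authors deposited intensity values of 32321 probesets, and the submitters' processing notes name RMA, with software and array build not given in the sources used here. Per the file, the deposited intensity values ran from 1.57 to 14835, a linear scale, so log2 was taken. Of the probesets, 19158 had 1 gene symbol in the platform's annotation, 1388 had several and 11775 none. The probeset with the highest mean was kept for each gene, which left 18404 genes. The comparison used lmFit and eBayes of limma 3.58.1 (R 4.3.3), two-sided, with Benjamini-Hochberg adjustment over all genes and a threshold of 0.05. The number of arrays limits the precision. The fit was tested on simulated data.

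The genes of the set and the lists were chosen with earlier results of these data known. All genes of the set are named. Of each of the 8 other lists, the up to 4 genes with the largest change past the threshold are named. The 3 pairs of genes, the 4 motifs and the printed promoter stretches were picked after the values were seen. The other settings tried were 3 further normalizations (quantile, cyclic loess and equal medians), filters at the 25th and 50th percentile of brightness, 2 other ways to use probesets, a trended robust prior with statmod 1.5.0, weights for arrays, a replicate block, thresholds of 0.01 and of 1.5-fold, and leaving out single arrays. Motifs, permutations and figures were made with Python 3.11.15, scipy 1.17.1 and matplotlib 3.10.9.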

Additional observations from a re-analysis of the deposited data

How the results depend on the processing

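Of the 18 sterol genes that passed, 17 (15 higher and 2 lower) passed in all 16 refits that tested them, and MVD did not. On leaving out single arrays, 17 to 19 sterol genes passed, 15 to 17 of them higher and 2 lower. Under quantile normalization, cyclic loess normalization, both filters on dim genes, the trended prior and array weights 19 to 20 rose. A change of at least 1.5-fold left 5 sterol genes, 5 higher and 0 lower, 1032 of all genes, and 10 in the 8 neighbouring lists in place of 47. At an adjusted p of 0.01, 2841 of all genes and 24 genes of the neighbouring lists passed. The lists gave 31 to 41 and all genes 3839 to 4828 without single arrays. Of 31 named genes of these lists 8 lost the call in at least 1 refit. The sign of NPC2, which never passed, turned to 0.049 under quantile normalization and 0.059 under cyclic loess normalization, and its change ran from -0.046 to 0.039 on leaving out single arrays, above 0 without vehicle replicate 3, menthol replicate 2 or menthol replicate 3. The change of SREBF2 ran from -0.13 without vehicle replicate 2 to 0.019 without vehicle replicate 3. The cause was not tested.

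Same-numbered arrays did not deviate together from their group means (correlations 0.01, -0.01 and 0.09 over all genes, not over the sterol genes alone, with 2 of 6 arrays correlating best with their own number), so the numbers were not taken as pairs. With the replicate block 20 sterol genes passed, 18 higher and 2 lower: IDI1, MSMO1 and NSDHL passed and MVD did not (adjusted p = 0.0508). The median change of all genes was 0.03 as reported, 0.01 with equal medians and 0.00 under cyclic loess normalization, and that of the sterol genes 0.29, 0.27 and 0.32. The dimmest 25% of genes had a median change of 0.10 and held 0 sterol genes.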
